A study of Bos taurus with 21 samples.

Results

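RPL3L, ART3, BTC and ETNPPL were among the genes whose RNA rose most in the muscle of cattle foetuses between 110 and 260 days post conception (dpc). They belong to a list of 5 genes that was chosen by the measured difference in intensity between 260 and 110 dpc on these arrays, so the rise itself is described here without a test. A probe belonged to a gene when the transcript accession it was designed on maps to that gene in the cattle annotation of assembly ARS-UCD2.0. By this rule 8 of the 26628 named probes of the array, and 4 of its 12538 named genes, were members: 2 probes of RPL3L, 2 of ART3, 3 of BTC and 1 of ETNPPL. MYBPC2, the fast isoform of myosin-binding protein C and the fifth gene of the list, matched no probe by this rule and was not analysed here. RPL3, with 6 probes, was taken as the paralogue of RPL3L and not by its change, so its change with stage was tested. Earlier results of these data were known when it was taken, which limits what that test can show.

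Muscle fibres in cattle form and mature before birth: embryonic and foetal contractile proteins give way to adult isoforms, and the enzymes of energy metabolism rise as the foetus nears term. The members are not parts of 1 pathway. RPL3L encodes a ribosomal protein of striated muscle that takes the place of RPL3 in the large (60S) ribosomal subunit, next to the site where peptide bonds are made. ART3 encodes a membrane-anchored member of the mono-ADP-ribosyltransferase family that lacks the conserved active-site motif of its relatives. BTC encodes betacellulin, a ligand of the epidermal growth factor (EGF) family that binds the receptors EGFR and ERBB4. ETNPPL, formerly named AGXT2L1, encodes ethanolamine-phosphate phospho-lyase, which breaks down phosphoethanolamine, a building block of the membrane lipid phosphatidylethanolamine.

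The arrays measured muscle RNA from purebred foetuses of Blonde d'Aquitaine (BA), a muscular French beef breed, and Charolais (CH), the breed it was set against. BA had 3, 2, 3 and 2 foetuses at 110, 180, 210 and 260 dpc and CH had 2, 3, 3 and 3, with 1 single-colour array for each of the 21 foetuses. The 8 males and 13 females were spread unevenly, with 3 males in BA and 5 in CH, and each breed came from 2 sires. At 110, 180, 210 and 260 dpc the males numbered 2, 0, 1 and 0 in BA and 0, 1, 2 and 2 in CH. At single stages, breed and sex were therefore partly tied. A myostatin mutation is known in BA but not every animal carries it, and the labels give no genotype, so breed and mutation cannot be separated. The methods name the muscle Semitendinosus and the labels name it Longissimus thoracis. The arrays lay on 6 slides, and 29017 to 34502 probes were well above background on an array. Of the muscle fibre markers, 5 of 5 measured were well above background on all 21 arrays. Every level below is a normalized log2 intensity, on which 0 is about the median probe of an array and 1 unit is a doubling, and levels of different probes are not comparable. Where a gene has several probes, its main probe is the brightest on average. In bulk muscle, more cells of a type and more RNA per cell cannot be told apart.

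RPL3L rose at every step (probe A_73_118617). In BA its level was 1.13, 1.70 and 1.48 at 110 dpc, 4.33 and 4.53 at 180 dpc, 6.81, 6.05 and 7.09 at 210 dpc, and 8.15 and 8.31 at 260 dpc. In CH it was 1.23 and 1.85 at 110 dpc, 4.92, 5.27 and 4.47 at 180 dpc, 6.43, 6.92 and 6.25 at 210 dpc, and 8.01, 8.01 and 7.88 at 260 dpc. Every foetus of a stage lay above every foetus of the stage before it, whatever its breed, and the narrowest such gap was 0.78. The mean of the breeds rose by 6.61 (SE 0.21), or 97.7-fold. The first step, from 110 to 180 dpc, made up 47.9% of this log2 rise, the step to 210 dpc 29.3% and the step to 260 dpc 22.8%.

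ART3 also rose at every step in the group means, but foetuses of neighbouring stages were less well separated (probe A_73_P032901). In BA its level was -1.66, -0.99 and -1.72 at 110 dpc, 1.56 and 0.77 at 180 dpc, 2.48, 2.36 and 2.72 at 210 dpc, and 4.78 and 4.78 at 260 dpc. In CH it was -1.38 and -1.80, then 1.82, 2.39 and 0.84, then 3.33, 2.20 and 3.47, and at last 4.72, 5.13 and 5.10. The CH foetuses of 180 and 210 dpc overlapped, by 0.19, while no other pair of neighbouring stages did. The mean of the breeds rose by 6.41 (SE 0.30), or 84.8-fold, of which 46.0% fell to the first step, 20.9% to the second and 33.1% to the last.

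On the log2 scale, BTC completed most of its rise by 180 dpc (probe A_73_P041286). In BA its level was -0.96, -1.83 and -0.73 at 110 dpc, 3.27 and 2.78 at 180 dpc, 4.19, 4.31 and 4.10 at 210 dpc, and 4.46 and 4.92 at 260 dpc. In CH it was -0.93 and 0.18, then 3.60, 3.37 and 3.16, then 3.46, 3.44 and 3.98, and at last 4.15, 4.40 and 4.64. The first step carried 74.8% of a total rise of 5.32 (SE 0.24), or 39.9-fold, against 13.4% for the second and 11.8% for the last. After 180 dpc the foetuses of neighbouring stages overlapped when the breeds were pooled. In CH the mean moved by 0.25 between 180 and 210 dpc, and in BA by 1.17.

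ETNPPL started from background, so the size of its first step was not measured (probe A_73_120003). At 110 dpc it was not well above background on any of the 5 arrays, with levels of -4.97, -4.74 and -5.45 in BA and -4.99 and -4.96 in CH. At 180 dpc it was well above background in 1 of 2 BA foetuses, at -2.69 and -1.84, and in 3 of 3 CH foetuses, at -0.54, -1.26 and -1.86. All later foetuses had a clear signal, at 1.85, 1.32 and 2.17 in BA and 1.72, 1.65 and 1.75 in CH at 210 dpc, and at 4.23 and 4.00 in BA and 3.22, 3.52 and 3.65 in CH at 260 dpc. Between 180 and 210 dpc the mean of the breeds rose by 3.48 (SE 0.23), with 1 of the 5 foetuses of 180 dpc at background, and between 210 and 260 dpc by 2.05 (SE 0.23). No share of a total rise is given, since the start lies at background. Since the level at 110 dpc is only a bound, the fold is given against the lowest signal that was well above background: in BA the level of 260 dpc was at least 142-fold higher and that of 210 dpc at least 28.3-fold, and in CH these bounds were at least 72.1-fold and at least 21.3-fold.

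**Figure D1:**
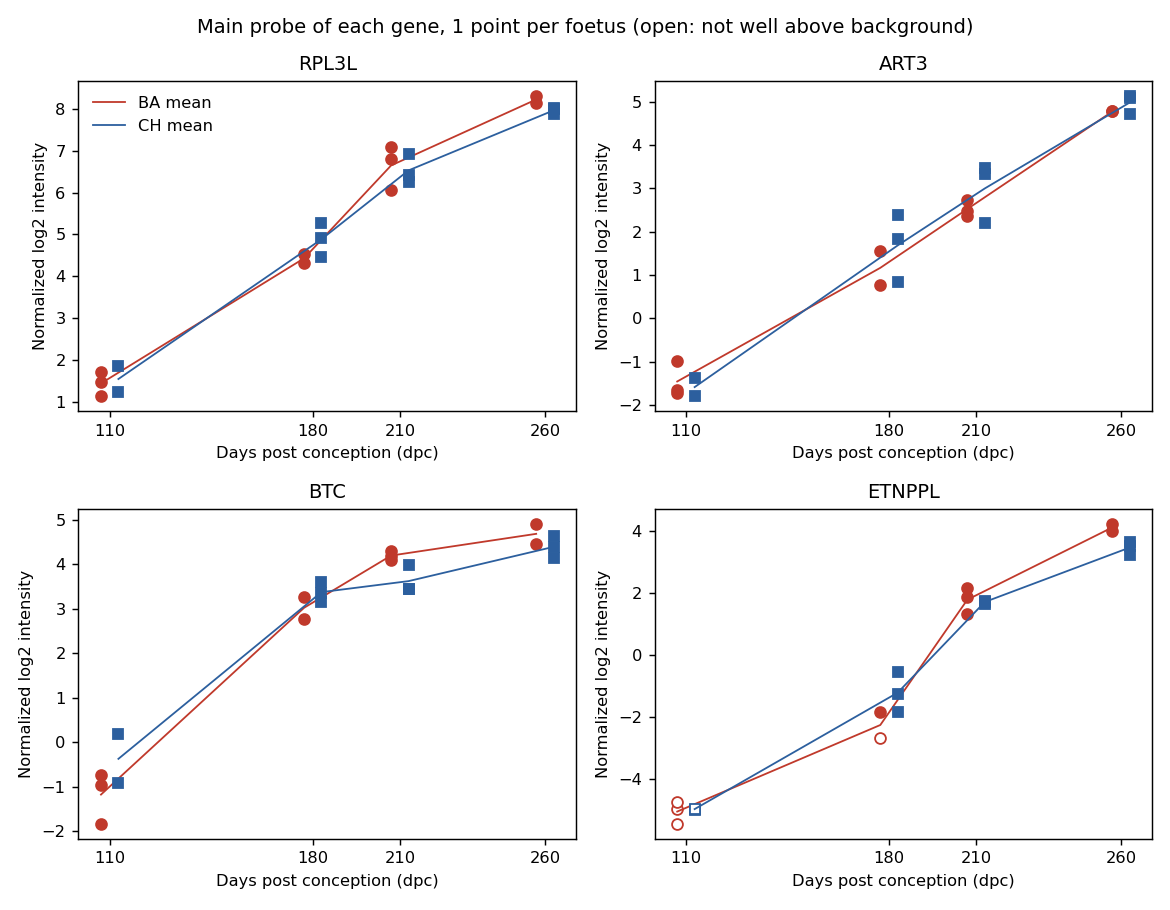
Normalized log2 intensity (vertical axis) of the main probe of RPL3L, ART3, BTC and ETNPPL against stage in dpc, with 1 point per foetus (red circles BA, blue squares CH), lines through the group means and open points for arrays on which the probe was not well above background. On this log2 scale BTC does most of its rise by 180 dpc and then flattens. ETNPPL is at background in all 5 foetuses of 110 dpc and climbs by 3.48 between 180 and 210 dpc.

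Among the 9297 named genes with a brightest probe well above background on every array of 110 and 260 dpc, RPL3L had the second largest rise, ART3 the third and BTC the sixth. The genes next to them were ACTN3, the actin-crosslinking protein of fast fibres, with a rise of 6.93, CKMT2, the mitochondrial creatine kinase of muscle, with 6.08, TMOD4, which caps actin filaments, with 5.66, and PLN, which regulates the calcium pump, with 5.14. ETNPPL could not be placed in this order, because it was at background at 110 dpc. Under normexp background correction, which adds an offset to every signal, the rises were smaller, at 5.08 in ART3 and 4.23 in BTC. The step from 110 to 180 dpc spans more days than the later ones, so the shares above are not rates. They are shares of the log2 change, and in intensity units the later steps of a rise weigh more.

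Within a slide, 11 pairs of same-breed foetuses of different stages could be compared. These are the arrays on whose rise the genes were chosen, so the differences describe that rise and add no support to it. The older foetus had the higher level in 11 of 11 pairs for the main probe of each of the 4 genes, and the smallest difference was 0.96 in RPL3L, 0.81 in ART3, 0.18 in BTC and 1.47 in ETNPPL.

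The other probes of the same genes followed their main probes closely. The second probe of RPL3L, A_73_P348591, rose by 6.55, which is 0.06 less than the main probe. The second probe of ART3, A_73_P300290, rose by 6.78, but at 110 dpc only 1 of 5 arrays had it well above background, and in CH, with none, the rise is a bound of at least 108-fold. In BTC, A_73_100868 rose by 4.98 and A_73_P438321 by 4.88, and the latter was at background on every array of 110 dpc, so that its rise is a bound of at least 19.6-fold for BA, and for CH of at least 14.6-fold. Over the 21 arrays, the correlation with the main probe was 0.9998 for RPL3L, 0.994 for ART3, and 0.989 and 0.995 for BTC, values to which the large differences between stages contribute. Among the members, the only disagreement in these pairs within a slide lay in BTC. There A_73_100868 was higher in the older foetus in 9 of 11 pairs, while the other 2 probes were higher in 11 of 11.

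**Figure D2:**
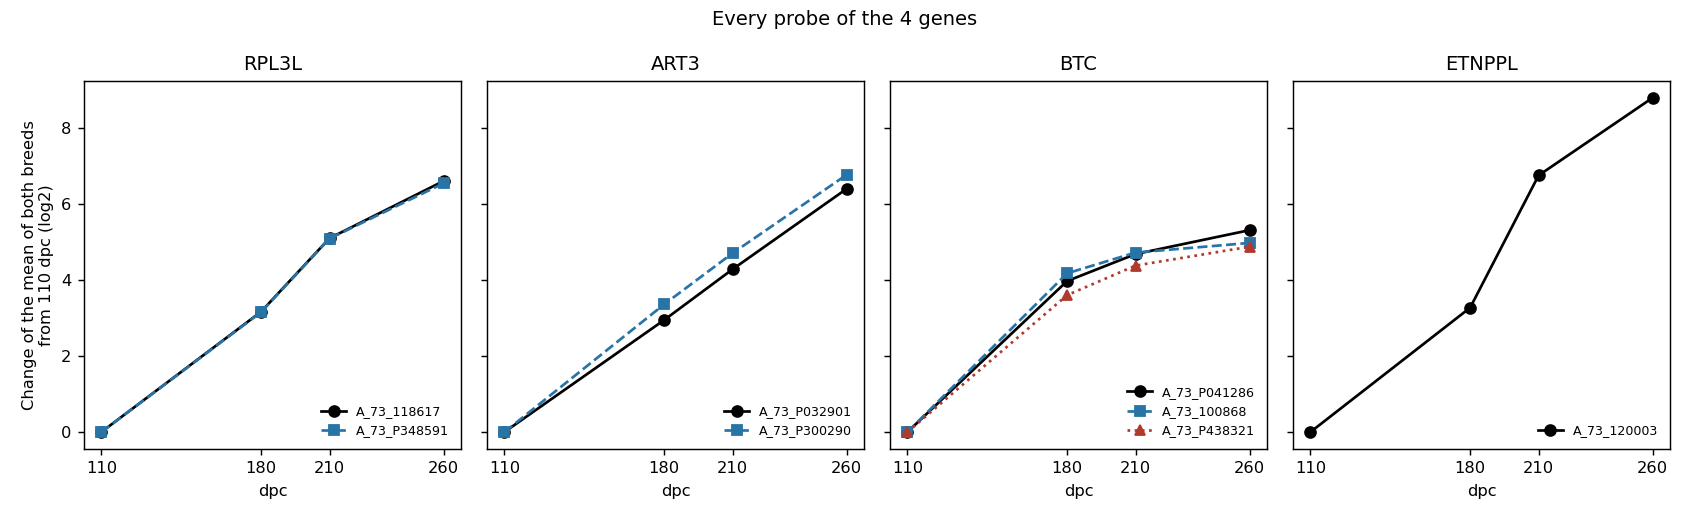
Change of each probe from its own mean at 110 dpc (vertical axis, log2, mean of both breeds) against stage in dpc, with 1 panel per gene and 1 line per probe. Both probes of RPL3L lie on each other, and the 3 probes of BTC end between 4.88 and 5.32 with the same early bend.

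RPL3 fell while RPL3L rose. Its level (probe A_73_P097521) in BA was 9.14, 9.31 and 8.99 at 110 dpc, 8.49 and 8.75 at 180 dpc, 8.04, 8.31 and 8.36 at 210 dpc, and 7.29 and 7.14 at 260 dpc. In CH it was 9.24 and 9.08, then 9.06, 8.73 and 8.80, then 7.89, 8.29 and 8.41, and at last 6.99, 7.64 and 7.53. The foetuses of 210 dpc lay below all those of 180 dpc and the foetuses of 260 dpc below all those of 210 dpc, whatever the breed. With the breeds together, 110 and 180 dpc overlapped by 0.07. Within a breed these 2 stages lay apart, by 0.24 in BA and 0.03 in CH. Between 110 and 260 dpc, RPL3 decreased by 1.85 on the log2 scale (SE 0.14, 3.61-fold lower, limma adjusted p = 4.19e-08). All 6 of its probes passed this test, with changes between -1.69 and -2.14, where 22.7% of all probes of the array were called lower (43.9% in either direction). In each breed all 6 probes passed as well, beside 17.5% of all probes called lower in BA and 16.4% in CH. The main probe changed by -1.93 in BA (limma adjusted p = 2.94e-06), while its change in CH was -1.77 (limma adjusted p = 6.31e-06), and the difference between these falls was -0.15 (95% interval -0.76 to 0.46, limma adjusted p = 0.999).

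On the log2 scale, the course of RPL3 was no mirror image of that of RPL3L in its timing. Of the log2 fall of RPL3, 22.3% came between 110 and 180 dpc, 28.3% between 180 and 210 dpc and 49.4% between 210 and 260 dpc. RPL3L made 47.9% of its log2 rise in the first of these steps and 22.8% in the last. In intensity units these shares differ and were not compared. The last step of RPL3 was -0.91 (SE 0.14, limma adjusted p = 1.62e-04), and all 6 probes passed, beside 12.0% of all probes. The first was -0.41 (limma adjusted p = 0.0741) and did not pass in the main probe, while 1 of the 6 probes did, beside 6.63% of all probes. The main probe passed at this step under 6 of 32 alternatives, with limma adjusted p of 0.023 under normexp background correction, 0.0315 under quantile normalization, 0.0342 and 0.0466 with the filters on group means and on detection, 0.0434 with trended robust variances and 0.038 without CH replicate 1 of 260 dpc. The middle one was -0.52 (limma adjusted p = 0.0456) and passed in 3 of 6 probes beside 1.67% of all probes. The call of this middle step was lost in the main probe under 22 of the 32 alternatives. Among these, the change was -0.35 (limma adjusted p = 0.486) with slide as a block and -0.54 (limma adjusted p = 0.0533) with the replicate number as a block. The 22 also included the fits without any 1 of 17 of the 21 arrays, with changes from -0.59 to -0.45. Within a slide, the main probe of RPL3 was lower in the older foetus in 11 of 11 pairs. Of its other probes, A_73_119272 was higher in the older foetus in 2 of 11 pairs, and A_73_P051696 and A_73_P455891 in 1 each. In A_73_P300931 and A_73_P449236 this was so in 0 pairs. A_73_119272 also changed by 0.12 in BA between 180 and 210 dpc.

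The fall of RPL3 was set beside the rest of the 60S subunit. Of 46 genes of this subunit, 44 were measured, each by its brightest probe, and RPL3 had the lowest change of them all. Further probes of the other 43 genes were not compared. The other 43 had a median change of 0.20 between 110 and 260 dpc and ranged from -0.44 in RPL8 to 0.74 in RPL15, with 10 genes higher and 1 lower, against a median of 0.07 over all named genes, of which 25.0% were called higher and 26.0% lower. The direction of these 43 rests on the scaling: under quantile normalization their median was -0.30, with 0 higher and 32 lower, and with the unscaled table of the authors it was -0.19, with 0 higher and 4 lower. RPL3 was the lowest of the 44 under each of the 5 scales tried, at -2.27 and -2.24 on these 2 scales, where the lowest other gene was at -0.93 and -0.83. Under median scaling and normexp background correction RPL3 was at -1.75 and -1.91.

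**Figure D3:**
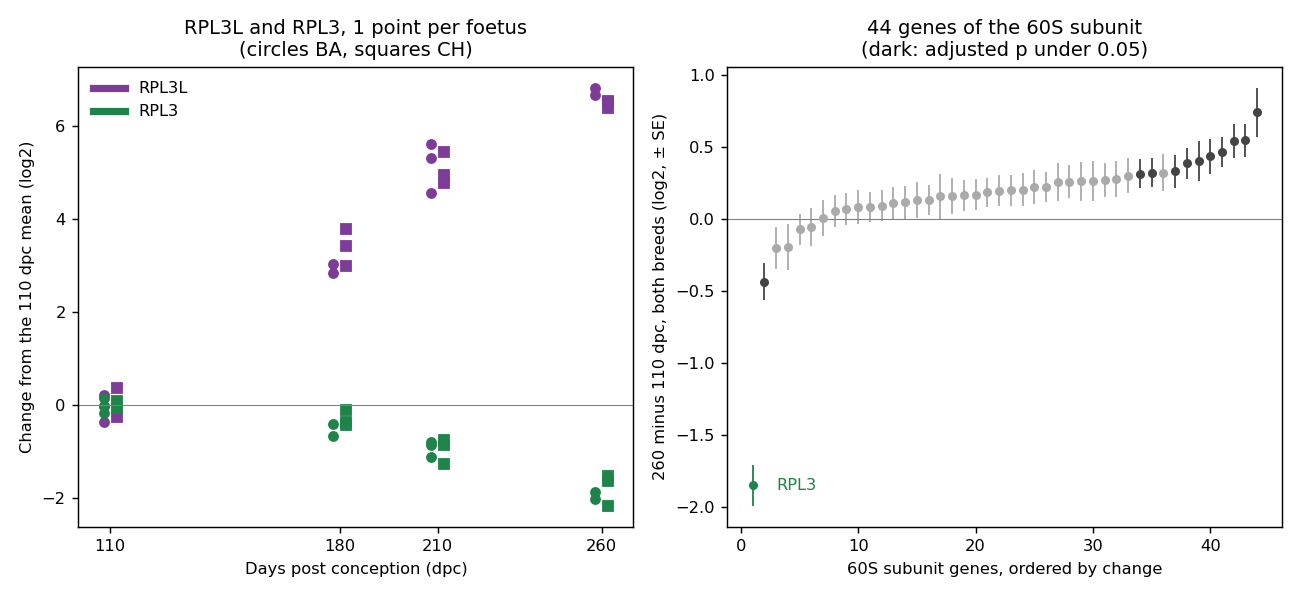
Left, change of RPL3L (purple) and RPL3 (green) from the mean at 110 dpc (vertical axis, log2) against stage in dpc, with 1 point per foetus; at 260 dpc RPL3L lies between 6.39 and 6.82 and RPL3 between -2.16 and -1.51. Right, change between 110 and 260 dpc (log2, mean of both breeds, bars are SE) of the 44 measured genes of the 60S subunit in order, in which RPL3 at -1.85 lies apart from the next gene at -0.44.

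The relatives of the members, chosen with earlier results of these data known, did not share a direction. The counts below stand beside the 25.0% of all named genes that were called higher and the 26.0% called lower. Of 7 other ribosomal proteins that have a paralogue with a similar name, 6 were measured and 1 was higher at 260 dpc, RPS27L at 1.37, while 2 were lower, RPL26L1 at -0.97 and RPL7L1 at -0.28. RPL10L, which is best known from testis, was above background on 3 of 21 arrays. RPL22L1 was at 0.20 and RPL36AL at -0.23, and neither passed the test. No change of these 6 came near that of RPL3L, which rose by 6.61.

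Of the ADP-ribose enzymes related to ART3, 6 of 10 were measured, with 3 higher, 1 lower and a median of 0.59, and with the table of the authors 2 were higher and 2 lower, with a median of 0.20. MACROD1, which removes ADP-ribose from proteins, rose by 2.44 and ART1, the arginine-specific transferase of muscle, by 1.30. CD38, which makes cyclic ADP-ribose, rose by 0.88, and MACROD2 decreased by 1.11. ADPRH and ADPRS, both hydrolases, were at 0.30 and -0.10 and did not pass.

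Of the EGF family, its receptors and the proteases that release its ligands, 8 of 18 were measured besides BTC, with 2 higher and 2 lower, which is near the share of all named genes in both directions. HBEGF, another EGF ligand, rose by 0.96 and NRDC, which promotes ligand release, by 0.62. The neuregulin NRG1 and its receptor ERBB3 decreased by 3.87 and 3.78, and NRG1 exceeded background on only 5 of 21 arrays. Under normexp background correction, NRG1 decreased by 0.73. With the table of the authors, 0 of the 8 were called higher and 1 lower. EGFR and ERBB4, the receptors that bind betacellulin, were not analysed here.

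In ethanolamine and phosphatidylethanolamine metabolism, 12 of 16 genes besides ETNPPL were measured, and 3 were higher and 3 lower, with a median of -0.06, again near the share of all named genes. CHPT1, which makes phosphatidylcholine, rose by 0.84, PHOSPHO1, a phosphatase of phosphoethanolamine and phosphocholine, by 0.86, and PCYT1A by 0.36. PEMT, which methylates phosphatidylethanolamine, decreased by 0.90, SGPL1, which releases phosphoethanolamine from sphingosine phosphate, by 0.58, and CHKB, a choline and ethanolamine kinase, by 0.37. PHYKPL, the closest relative of ETNPPL, was at -0.08 and did not pass. With the table of the authors, none of the 12 genes was called higher and 3 lower.

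Of the thick filament genes around MYBPC2, 8 of 12 were measured, and 7 were higher with a median of 1.06. MYBPH and MYBPHL, which resemble myosin-binding protein C, rose by 2.30 and 2.16, MYBPC1, its slow isoform, by 0.98, and MYBPC3, its cardiac isoform, by 0.58. OBSL1 was at 0.32 and did not pass. Of the genes of adult fast fibres, 10 of 13 were measured, 9 were higher, with a median of 2.95, and PVALB, a calcium buffer of fast fibres, decreased by 1.34. Markers of other cells also changed between 110 and 260 dpc, and their part in these lists was not tested. At 260 dpc 4 of 6 erythroid, 3 of 5 fibroblast and 2 of 4 hepatocyte markers were lower, and 3 of 5 Schwann cell markers were higher. Of 5 leukocyte markers 1 was higher and 2 were lower, and of 5 endothelial markers 2 were higher and 1 was lower. Of 4 adipocyte markers 1 was higher and 0 were lower. The summed level of the hepatocyte markers was 5.66 to 6.16 at 110 dpc and 3.66 to 4.51 at 260 dpc, that of the Schwann cell markers 4.40 to 4.84 and 5.55 to 6.65, and that of the muscle fibre markers 11.5 to 11.8 and 13.3 to 13.6. Of the cardiac markers, 4 of 5 were measured: NPPA and NPPB stayed at background throughout, while TNNI3 and MYBPC3 were well above it on all 21 arrays and changed by -1.25 (limma adjusted p = 0.0182) and 0.58 (limma adjusted p = 0.0374).

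The breeds were compared in measures that the choice of the genes did not use. Averaged over the stages, 0 of the 4 genes passed the comparison of BA with CH in limma, and 0 had an unadjusted p under 0.05, where 0.0733% of all probes were called. BA minus CH was -0.05 in RPL3L (95% interval -0.36 to 0.27), -0.27 in ART3 (-0.71 to 0.17), -0.07 in BTC (-0.42 to 0.28) and -0.10 in ETNPPL (-0.45 to 0.26), with limma adjusted p between 0.763 and 0.959. The average of ETNPPL includes 110 dpc, where it was at background in both breeds, and 180 dpc, where 1 BA foetus was. Exact permutation of the breeds within stages gave two-sided p of 0.7594, 0.2084, 0.7526 and 0.6804. In 6 pairs of BA and CH foetuses of a stage on 1 slide, BA was higher in 3 for RPL3L, ART3 and BTC and in 4 for ETNPPL. For RPL3 the average difference was -0.10 (95% interval -0.31 to 0.11, limma adjusted p = 0.829).

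At single stages, 0 of 16 tests of the main probes passed in limma, and 2 had an unadjusted p under 0.05. The test of ETNPPL at 110 dpc set background against background. Of all probes, 0.0206% were called at 110 dpc, 0.0275% at 180 dpc, 0.00229% at 210 dpc and 0.0137% at 260 dpc. The first of the 2 was BTC at 110 dpc, which was lower in BA by 0.80 (BA minus CH -0.80, 95% interval -1.52 to -0.09, limma adjusted p = 0.454), although the BA and CH foetuses overlapped, and it was -0.25 without the CH foetus at 0.18 (CH replicate 2). The other was ETNPPL at 180 dpc (BA minus CH -1.04, 95% interval -1.77 to -0.31, limma adjusted p = 0.709), where the BA foetuses at -2.69 and -1.84 and the CH foetuses at -0.54, -1.26 and -1.86 overlapped as well. With slide as a block the latter difference was -0.59 (limma adjusted p = 0.873), and without the BA foetus at background (BA replicate 1) it was -0.62.

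By the main probes, every BA foetus lay above every CH foetus at 3 of the 16 combinations of gene and stage, and at none the reverse. These were RPL3L and ETNPPL at 260 dpc, where 7.79% of all probes had this order, and BTC at 210 dpc, where 4.38% had it. At 260 dpc the 2 BA foetuses were female and 2 of the 3 CH foetuses were male. The differences were 0.26 in RPL3L (95% interval -0.39 to 0.91), 0.65 in ETNPPL (-0.08 to 1.38) and 0.58 in BTC (-0.07 to 1.22), with a limma adjusted p of 1 each. All 3 probes of BTC and both of RPL3L had the same order of breeds at these stages. The exact permutation p was 0.1 in each of the 3, the smallest that groups of this size can give. At 180 dpc the BTC probe A_73_P438321 had the opposite order, with CH at 0.11 to 0.30 and BA at -0.45 to -0.10. The share of all probes with that order at 180 dpc is not given here.

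The size of the rise was compared between the breeds as well. Of the total rises, 0 of 4 passed this comparison in limma, where 0.00687% of all probes did, and 0 of 12 single steps did, where 0.00229% of all probes did at each of the first 2 steps and 0 at the last. For ETNPPL, the total rise and the first step start from background at 110 dpc. Of these 16 comparisons, 2 had an unadjusted p under 0.05. BTC rose by 5.87 in BA and 4.77 in CH (difference 1.10, 95% interval 0.08 to 2.11, limma adjusted p = 0.943), and the difference was 0.54 without that same CH foetus. ETNPPL rose by 4.04 in BA and 2.92 in CH between 180 and 210 dpc (difference 1.12, 95% interval 0.14 to 2.10, limma adjusted p = 1). This difference was 0.69 without that same BA foetus, 0.55 with slide as a block and 0.52 under normexp background correction. RPL3L rose by 6.79 and 6.43 (difference 0.36, 95% interval -0.55 to 1.28) and ART3 by 6.24 and 6.57 (difference -0.34, 95% interval -1.61 to 0.93). With 2 or 3 arrays a group, the intervals were wide, and a difference of the size seen in BTC lay within that of RPL3L.

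**Figure D4:**
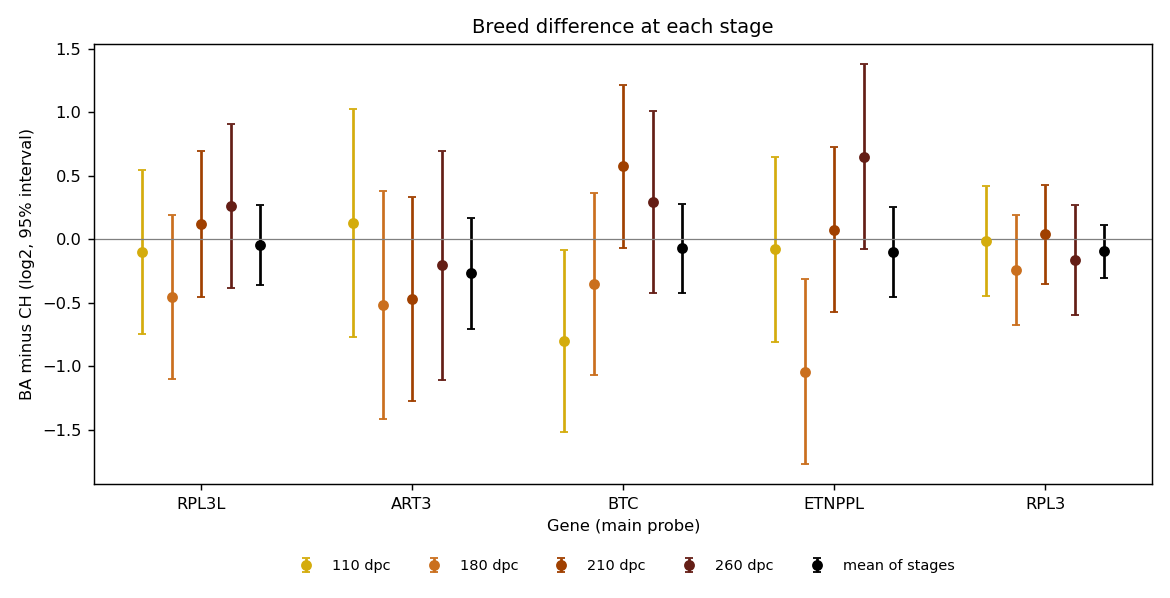
BA minus CH (vertical axis, log2) of the main probe of each gene at 110, 180, 210 and 260 dpc and on average over the stages, with 95% intervals of the limma fit. The intervals of BTC at 110 dpc and ETNPPL at 180 dpc lie below 0 before adjustment, and those of the averages over the stages all include 0.

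In limma, 0 of the 4 genes passed the comparison of male with female foetuses, where 0.0687% of all probes did, and 0 of the 4 had an unadjusted p under 0.05. ART3 had the largest difference, with males lower by 0.47 (male minus female -0.47, SE 0.23, limma adjusted p = 0.616). The differences of the other genes lay between -0.23 in ETNPPL and 0.08 in BTC.

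Each gene was also set beside the genes whose levels followed it most closely over the 21 arrays, among 10225 genes with a probe well above background on at least 10 arrays. A gene was represented here by whichever of its probes correlated most, which need not be its brightest. For RPL3L these were ACTN3 (r = 0.992), TRIM7 (r = 0.990) and PGM1 (r = 0.990), a glycogen enzyme. For ART3 they were TRIP10 (r = 0.985), UBE2D1 (r = 0.985) and CD36 (r = 0.984), a fatty acid transporter. For BTC they were SH3RF2 (r = 0.981), ADGRB1 (r = 0.979) and PDLIM3 (r = 0.977). For ETNPPL they were EEF1A2 (r = 0.990), the elongation factor of muscle and nerve, MYH1 (r = 0.988), the fast myosin heavy chain, and RPL3L (r = 0.987). The probes of MYH1 differed: the one matched here, A_73_P047416, had a measured rise of 9.55, and the brightest, A_73_P476593, one of 2.79. For RPL3 they were DCLK1 (r = 0.973), CPE (r = 0.964) and NONO (r = 0.963). Among themselves, the members were least alike between BTC and ETNPPL (r = 0.902), and the lists of closest genes did not overlap apart from RPL3L beside ETNPPL. These correlations are over arrays of stages that differ widely, so any genes with a like course over the stages correlate highly.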

How the data were processed

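RNA of 21 foetal muscles was measured on Agilent 4x44K bovine arrays, 1 colour, 1 array per foetus. Per the labels and methods, the authors extracted intensity values with Feature Extraction 10.7, with multiplicative detrending and without background subtraction. The intensity values deposited in the scanner files were not scaled between arrays, and the authors' deposited table holds their log2 values and leaves out probes at background. Control spots and 258 outlier values were left out, and spots of a probe were averaged; no value was saturated. From log2 intensity the 75th percentile of each array (525 to 1174, median 706 intensity units) was subtracted and 2.69 added. This centring moved the median of all 43653 probes between 110 and 260 dpc from -0.30 to 0.09.

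The model held a mean for each of the 8 combinations of breed and stage and was fitted by limma 3.58.1 (R 4.3.3, with jsonlite 2.0.0 and version 1.17.8 of data.table) over all 43653 probes without a filter, with 13 residual and 2.12 prior degrees of freedom. A Benjamini-Hochberg adjusted p under 0.05 counted as a call. The number of arrays limits the precision. Foetuses are separate animals, and some share a sire. The fit was tested on simulated data first. Breeds were also compared by exact permutation within stages (20000 ways). A bound against background used the higher of the probe's own signal and the lowest signal well above background on each array.

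The members, RPL3, the lists and their relatives were chosen with earlier results of these data known. The genes named are the members, RPL3, the list genes called or closest to a member, the neighbours in rank, and the 3 genes most correlated with each. A list gene is measured by its brightest probe. Probes were named through accessions, and since the array was designed on another assembly no positions are given. Replicate numbers carried no pairing: after removal of group means, the median correlation of arrays was 0.0019 over 66 pairs of equal number and -0.0062 over 126 pairs of unequal number. Alternatives were normexp background correction (offset 50), quantile and median scaling, the unscaled values of the authors, filters on group means (above 0 in at least 7 of 8 groups) and on detection (at least 10 arrays), sex as a covariate, a block for slide, for sire or for replicate number, trended robust variances, other probes of a gene, and each array left out. A group reduced to 1 array in this way is assumed to vary like the others.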

Additional observations from a re-analysis of the deposited data

How the results depend on the processing

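Each result was recomputed under up to 12 kinds of alternative and without each array in turn. No breed difference, difference in the rise or sex difference of the 4 genes passed under any of them, and the replicate block changed no call other than that of the middle step of RPL3, -0.54 with an adjusted p of 0.0533 in limma. The fall of RPL3 between 110 and 260 dpc passed under all of them, and ranged from -1.91 to -1.75 without single arrays. The mean rise of the 4 genes, with ETNPPL at its measured level, was 6.78, 6.70 to 6.87 without single arrays, and 5.11 under normexp background correction; with the authors' table it has no value, since ETNPPL is absent there at 110 dpc. The list genes called numbered 46, and 33 to 69 under the alternatives, 69 of them under quantile normalization. Small breed averages changed sign without passing. That of RPL3L (-0.05) was 0.0087 with the authors' table, 0.096 with slide as a block and -0.12 to 0.031 without single arrays. That of BTC (-0.07) was 0.016 under normexp, 0.025 in probe A_73_100868 and -0.21 to 0.067 without single arrays. That of ETNPPL (-0.10) was 0.027 under normexp, 0.18 with slide as a block and -0.21 to 0.0067 without single arrays, and that of RPL3 was 0.020 in probe A_73_P455891. ETNPPL and 1 probe each of ART3 and BTC were at background at 110 dpc on most or all arrays, which limits their rise to a bound. The filter on group means removes ART3, BTC and ETNPPL from the tests.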

Other observations

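EEF1A2, the closest gene to ETNPPL, has a paralogue that was looked at after these values were seen. EEF1A2 and EEF1A1 encode isoforms of the elongation factor that brings aminoacyl-tRNA to the ribosome, and EEF1A2 is the form of mature muscle and nerve. The brightest probe of EEF1A2 (A_73_115974) was at -4.05 in BA and -4.54 in CH at 110 dpc, at 0.39 and 1.92 at 180 dpc, at 4.42 and 4.67 at 210 dpc, and at 6.04 and 6.06 at 260 dpc. At 110 dpc it was well above background in 1 of 3 BA foetuses and 0 of 2 CH foetuses, so its rise to 260 dpc is a bound, of at least 436-fold in CH. The other EEF1A2 probes, A_73_P268507, which is the one closest to ETNPPL, and A_73_P406296, were at background in all 5 foetuses of 110 dpc, and their lower bounds were 195-fold (BA) and 145-fold (CH) for the former probe, against 139-fold (BA) and 85.4-fold (CH) for the latter. The average breed difference of the brightest probe of EEF1A2 was -0.33 (adjusted p = 0.731 in limma). Of the probes of EEF1A1, the brightest (A_73_P041941) was at 10.69 in BA and 10.59 in CH at 110 dpc and at 10.57 and 10.58 at 260 dpc, a change of -0.06 (adjusted p = 0.62 in limma). Its other probes did not follow it: EEF1A1 probe A_73_P426651 changed by -0.49 and A_73_P107176 by -0.98, with adjusted p of 0.00973 and 4.01e-05 in limma, and the remaining ones lay between these.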
